A study of Mus musculus with 15 samples.

Results

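The carbonic anhydrases measured here were 10 genes, Car2, Car3, Car4, Car5a, Car7, Car8, Car9, Car12, Car13 and Car14. They were given as a list of symbols, drawn up with earlier results of these data known, and 6 further carbonic anhydrases on the arrays were not in it. All 22 probe sets that carried 1 of the 10 symbols and no other were taken, of 45037 probe sets tested, and the 10 genes stand among 18193 genes with such a probe set. RNA came from acutely purified retinal endothelial cells of adult mice, taken with beads coated with antibody to PECAM, a surface protein of endothelium. The 4 groups were wild type (6 arrays), Fz4-/- (3 arrays), which lack the receptor Frizzled4, Lrp5-/- (3 arrays), which lack its co-receptor, and Norrin- (3 arrays), which lack the ligand. All groups shared a C57Bl6/129 mixed background and were labelled as mixed gender, the cells of 5 to 10 mice were combined for each array, and nothing in the labels limits the gene losses to endothelium. The comparison asks how the retinal vessel transcriptome of adults differs after life without each of these 3 parts of the pathway.

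Carbonic anhydrases interconvert carbon dioxide and water with bicarbonate and a proton, so they set how fast a cell or a fluid layer can move acid and carbon dioxide. Family members differ in where they sit: in the cytosol, in mitochondria, or on the outer face of the membrane, and some have lost the zinc site and are not enzymes. Norrin, made by Müller glia, binds Frizzled4 and Lrp5 on retinal endothelium and stabilises beta-catenin, which acts with TCF/LEF factors, and this signal is needed for the retinal capillary beds and for the barrier properties of their walls. Car4 on the surface of brain and retinal capillaries is a known vessel marker, while Car2 and Car14 are known from Müller glia.

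By brightest probe set, Car4 and Car5a were lower in every one of the 9 mutant arrays than in any of the 6 wild type arrays. Car8 and Car13 were higher in the same way, a separation shown by 3.53% (lower) and 4.76% (higher) of all genes. The brightest probe set had the highest mean over all 15 arrays, so mutant signals took part in the choice. The Car8 probe set 1424958_at and the Car13 probe set 1439620_at did overlap wild type. Over the mean of the 3 mutants, the log2 difference from wild type was -6.07 for Car4, -4.51 for Car5a, 3.30 for Car8 and 2.79 for Car13. The lower side of each of these 4 genes lay below the median of all probe sets on its array, where signals are dim, so these sizes are not exact folds of transcript. Car7 also rose in Fz4-/- and Norrin-, and Car2 fell in Norrin- alone among the 3 comparisons with wild type. Of the 10 genes, counted by their brightest probe set, 3 passed as higher and 2 as lower in Fz4-/-, against 9.5% and 5.35% of all genes (14.9% in either direction). In Lrp5-/- 2 were higher and 2 lower, against 4.74% and 6.0% of all genes (10.7% in either direction). In Norrin- 3 were higher and 3 lower, against 15.2% and 8.19% (23.4% in either direction). Over the mean of the mutants 3 were higher and 3 lower, against 13.0% and 8.94% (21.9% in either direction). Arrays did not overlap wild type for 3 higher and 2 lower genes in Fz4-/- (13.9% and 9.36% of all genes), 2 and 2 in Lrp5-/- (7.78% and 8.95%), and 3 and 4 in Norrin- (15.8% and 9.55%). The median difference of the 10 genes over the mean of the mutants was -0.16 (log2), beside -0.01 for all genes, so the family as a whole had no common direction. A gene passed at a Benjamini-Hochberg adjusted p of 0.05 in limma, fitted on the log2 signals of all probe sets.

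**Figure D1:**
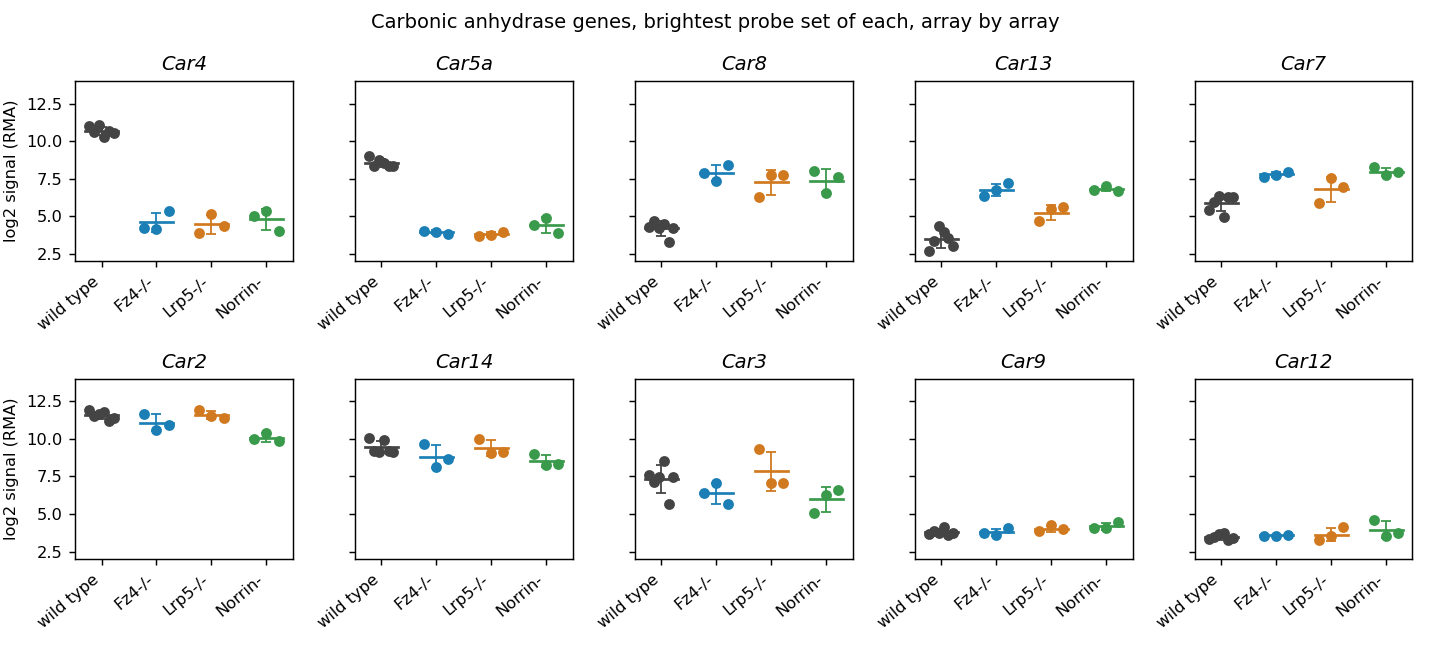
Log2 signal (vertical axis) of the brightest probe set of each of the 10 carbonic anhydrase genes on each of the 15 arrays. Points are arrays, grouped as wild type, Fz4-/-, Lrp5-/- and Norrin-, and bars are group means. Car4 lies between 10.31 and 11.05 in wild type and between 3.88 and 5.34 in the mutants.

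Promoters of 6 of the 10 genes, in 8 windows of 250 bases before an annotated start, could be read from RefSeq on GRCm38.p6. The windows of Car4 and Car5a are printed because these are the members that were lower in all mutants, and that of Car9 because it is the member whose window holds a TCF/LEF word. Capitals mark CTTTGAT and, read on the other strand, ACGTG, the core of a hypoxia response element.
Car4, chr11:84957504-84957753, plus strand: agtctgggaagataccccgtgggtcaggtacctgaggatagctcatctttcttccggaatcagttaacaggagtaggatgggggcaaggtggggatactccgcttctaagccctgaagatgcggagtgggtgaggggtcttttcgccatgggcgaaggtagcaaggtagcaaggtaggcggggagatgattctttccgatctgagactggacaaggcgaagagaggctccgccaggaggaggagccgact
Car5a, chr8:121944913-121945162, minus strand: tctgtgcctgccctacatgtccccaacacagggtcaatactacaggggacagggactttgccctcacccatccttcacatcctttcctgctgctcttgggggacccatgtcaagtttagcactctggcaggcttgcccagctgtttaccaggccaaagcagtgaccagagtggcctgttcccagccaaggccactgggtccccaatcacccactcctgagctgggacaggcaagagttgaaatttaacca
Car9, chr4:43506776-43507025, plus strand: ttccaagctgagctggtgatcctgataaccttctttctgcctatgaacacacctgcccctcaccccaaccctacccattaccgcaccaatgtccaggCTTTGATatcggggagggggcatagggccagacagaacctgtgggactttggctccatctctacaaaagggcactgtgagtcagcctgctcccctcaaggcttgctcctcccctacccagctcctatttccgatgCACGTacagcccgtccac

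The words CTTTGAT and CTTTGAA were searched on both strands, and they do not overlap each other in these windows. Of 32851 promoter windows of the same length, 3.21% held CTTTGAT, 4.46% held CTTTGAA and 7.48% held either. Neither word was found in 7 of the 8 windows of the carbonic anhydrases, Car4 and Car5a among them. In Car9 CTTTGAT begins at position -153 from the start. ACGTG, held by 16.6% of all windows, was found at -18 in Car9 and at -7 in Car14, both on the minus strand of the window as printed. The windows of Car4 and Car5a had 56.4% and 56.0% G and C. These are matches of letters, and nothing about binding was measured.

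The arrays bore out the labels for the receptor genes. Fzd4 was 12.09 ± 0.20 in wild type (log2 signal, SD, n = 6) and 4.22 ± 0.30 in Fz4-/- (SD, n = 3), and Lrp5 was 7.69 ± 0.27 in wild type (SD, n = 6) and 4.91 ± 0.45 in Lrp5-/- (SD, n = 3). Ndp, the Norrin gene, was dim in every group (4.44 ± 0.19 in wild type, SD, n = 6) and checks nothing. The mean of 6 endothelial markers spanned 11.70 to 12.25 on all arrays. The mean of 6 macrophage and microglia markers was 8.74 to 10.2 in wild type and 10.1 to 11.17 in the mutants, and that of 4 measured red blood cell markers was 5.88 to 6.31 in wild type and 4.50 to 5.66 in the mutants. Although all pools were labelled as mixed gender, Xist was 4.12 to 4.98 on all 3 Norrin- arrays, where the Y-linked Eif2s3y was 9.77 to 10.32. In Fz4-/- Xist was 11.42 to 11.88, and Eif2s3y was 9.57, 9.62 and 3.25 on arrays 1 to 3, so arrays 1 and 2 were high in both. Lrp5-/- (Xist 4.76 to 12.21) and wild type (4.88 to 12.27) held arrays of low and of high Xist. On the Norrin- arrays the gap between the 3′ and 5′ actin controls was 1.05 to 2.92 against 0.56 to 1.04 on the other 12 arrays. Lrp5-/- 1 and wild type 4 deviated from their groups together (r = 0.694). The part of these features in the results below was not tested, except where a value is given with them as covariates or without those arrays.

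Among the carbonic anhydrases that face outwards, Car4, which is tethered to the cell surface by a lipid anchor, showed the largest change of any member. With probe set 1418094_s_at its log2 signal in wild type was 10.31 at the lowest, 10.62 at the median and 11.05 at the highest. It was 4.24, 4.19 and 5.34 in Fz4-/-, 3.88, 5.15 and 4.37 in Lrp5-/-, and 5.02, 5.34 and 4.03 in Norrin-. The groups lie far apart, and the mutant arrays fall below the median of all probe sets, which was 5.885 to 6.038 on the 15 arrays (lower quartile 3.90 to 4.30), so that a remaining level in the mutants could not be told from a dim probe set. The difference from wild type was -6.10 in Fz4-/- (SE 0.34, adjusted p = 2.49e-08), -6.23 in Lrp5-/- (adjusted p = 3.87e-08) and -5.90 in Norrin- (adjusted p = 3.7e-08), by limma. The second probe set, 1448949_at, gave -6.22, -6.35 and -7.03, with wild type at 10.58 to 11.20 and every mutant array at 5.38 or lower.

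Because the signals come from bulk RNA, fewer cells with a transcript and less of the transcript in each cell cannot be told apart. Of the 6 endothelial markers, 1 was higher and 2 were lower over the mean of the mutants, against 13.0% and 8.94% of all genes. Cldn5, a tight junction protein, fell by 1.38 (adjusted p = 1.65e-07) and the receptor Tek fell by 0.65 (adjusted p = 9.04e-05). The VEGF receptor Kdr rose by 0.80 (adjusted p = 0.000434), while Pecam1, the target of the beads, differed by 0.07 (adjusted p = 0.768). The mean of the red blood cell markers did move with Car4, as it does not overlap between wild type and mutants. Of the 4 measured, Hbb-b2 fell by 1.59 and Alas2 by 1.87 over the mean of the mutants. Hba-a1 (-0.05) and Epb42 (-0.15) were dim and did not pass. With the red blood cell mean as a covariate, which by construction takes up much of the contrast, Car4 differed by -6.12 in Fz4-/- with adjusted p = 0.185, and by -6.24 (adjusted p = 0.00144) and -5.91 (adjusted p = 0.000199) in Lrp5-/- and Norrin-.

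Car14, a second enzyme with its active site outside the cell, was read by 1 probe set, 1450725_s_at. Wild type arrays spanned 9.14 to 10.05 with a median of 9.22. The Fz4-/- arrays read 9.65, 8.15 and 8.67, the Lrp5-/- arrays 10.00, 9.05 and 9.14, and the Norrin- arrays 9.0, 8.23 and 8.34. The Norrin- arrays all lie below wild type, while the other mutants overlap it. The difference in Norrin- was -0.93 (SE 0.34, adjusted p = 0.0647), which misses the threshold. It passed with some other settings, with -1.24 (adjusted p = 0.0301) when the mean of the rod markers was a covariate. In Fz4-/- it was -0.62 (adjusted p = 0.272) and in Lrp5-/- -0.05 (adjusted p = 0.978).

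Car9 and Car12, membrane enzymes known for their rise in low oxygen, were dim throughout. Car9 (1427013_at) was 3.60 to 4.14 in wild type with a median of 3.74, 3.71, 3.58 and 4.06 in Fz4-/-, 3.86, 4.24 and 3.98 in Lrp5-/-, and 4.06, 4.07 and 4.47 in Norrin-. Each mutant overlaps wild type, and the difference in Norrin- was 0.41 (adjusted p = 0.0936). Car12 (1428485_at) was 3.28 to 3.76 in wild type and 3.25 to 4.58 in the mutants, with a difference of 0.47 in Norrin- (adjusted p = 0.16). Its other probe sets, 1446517_at and 1447762_x_at, read 2.71 to 3.70 and 2.12 to 2.58 over all arrays. At these signals, most of them near or under the lower quartile, a change of either gene would be hard to detect.

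Of 12 other hypoxia targets, 4 rose and 5 fell over the mean of the mutants, where 13.0% of all genes rose and 8.94% fell, and their median difference was 0.13. Vegfa, the main growth factor for vessels, differed by 1.05 (adjusted p = 0.000168) and Egln3, an oxygen-sensing hydroxylase, by 1.66 (adjusted p = 1.55e-05). Ankrd37 fell by 1.72 (adjusted p = 2.83e-07), Bnip3, a mitochondrial protein, by 0.77 (adjusted p = 0.00871), the glucose transporter Slc2a1 by 0.59 (adjusted p = 0.000311) and Ndrg1 by 0.51 (adjusted p = 0.0079). The list moved both ways, and neither Car9 nor Car12 was among the genes that passed.

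Car5a, the mitochondrial enzyme known for supplying bicarbonate to carboxylases in liver, was the other member that fell in all 3 mutants. With 1419525_at wild type read 8.33 at the lowest, 8.47 at the median and 9.02 at the highest. The Fz4-/- arrays read 4.04, 3.99 and 3.84, the Lrp5-/- arrays 3.66, 3.75 and 3.97, and the Norrin- arrays 4.43, 4.92 and 3.92. The mutants are again at the level of dim probe sets, with no overlap. The difference was -4.61 in Fz4-/- (SE 0.20, adjusted p = 3.37e-09), -4.78 in Lrp5-/- (adjusted p = 3.2e-09) and -4.14 in Norrin- (adjusted p = 1.05e-08). With the red blood cell mean as a covariate these were -4.03 (adjusted p = 0.113), -4.46 (adjusted p = 0.000364) and -3.90 (adjusted p = 8.43e-05).

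Car5b, the second mitochondrial carbonic anhydrase, did not follow Car5a. Its mean was 6.55 ± 0.37 in wild type (SD, n = 6), 7.26 ± 0.31 in Fz4-/-, 7.05 ± 0.48 in Lrp5-/- and 7.64 ± 0.14 in Norrin- (SD, n = 3 each). It rose in Norrin- by 1.09 (adjusted p = 0.00542) and over the mean of the mutants by 0.76 (adjusted p = 0.00777). Of 6 further members of the family it was the only 1 that passed over that mean, where 21.9% of all genes passed. Of 8 genes listed as mitochondrial partners of bicarbonate metabolism, 1 rose and 2 fell over the mean of the mutants (13.0% and 8.94% of all genes). Pyruvate carboxylase (Pcx) fell by 0.61 (adjusted p = 0.0149) and a propionyl-CoA carboxylase subunit (Pcca) by 0.80 (adjusted p = 0.0147), while Pck2, a gluconeogenic enzyme of mitochondria, rose by 0.86 (adjusted p = 1.29e-05). Of 3 cytosolic genes, both acetyl-CoA carboxylases fell, where 8.94% of all genes did: Acacb by 1.70 (adjusted p = 4.68e-06) and Acaca by 0.62 (adjusted p = 0.00435). The other, Cad, differed by 0.56 (adjusted p = 0.203) and rose in Norrin- by 1.45 (limma, adjusted p = 0.0141).

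Car8 is a relative without enzyme activity that is known to bind the inositol trisphosphate receptor, a calcium channel, in Purkinje neurons. With 1427482_a_at wild type read 3.26 at the lowest, 4.28 at the median and 4.66 at the highest. In the mutants, the Fz4-/- arrays read 7.85, 7.32 and 8.39, the Lrp5-/- arrays 6.28, 7.75 and 7.76, and the Norrin- arrays 8.0, 6.54 and 7.59. All mutants are well above wild type, with the first Lrp5-/- array and the second Norrin- array the lowest of them. It rose by 3.65 in Fz4-/- (SE 0.40, adjusted p = 2.69e-05), 3.06 in Lrp5-/- (adjusted p = 0.000197) and 3.17 in Norrin- (adjusted p = 8.2e-05). With the red blood cell mean as a covariate these were 3.20 (adjusted p = 0.858), 2.82 (adjusted p = 0.223) and 2.98 (adjusted p = 0.0519). The probe sets did not give the same size of change: 1457904_at rose by 1.70, 1.62 and 2.20, all past the threshold, whereas 1424958_at differed by 0.66, 0.54 and 0.35 with none past it (adjusted p = 0.0569, 0.165 and 0.261) and passed only over the mean of the mutants (0.52, adjusted p = 0.0348). In wild type 1424958_at had the higher mean (4.75 against 4.20), so 1427482_a_at was the brightest only through the mutant arrays.

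Among the cytosolic enzymes, Car13 rose in all 3 mutants. With 1421307_at wild type spanned 2.67 to 4.34 with a median of 3.45. The Fz4-/- arrays read 6.36, 6.75 and 7.19, the Lrp5-/- arrays 4.66, 5.48 and 5.6, and the Norrin- arrays 6.75, 6.99 and 6.70. With this probe set the Lrp5-/- arrays lie between wild type and the other mutants, without overlap on either side. With 1421308_at they reached 4.72 and overlapped Fz4-/- (from 4.56) and Norrin- (from 4.22). With 1421307_at the rise was 3.29 in Fz4-/- (SE 0.32, adjusted p = 9.58e-06), 1.77 in Lrp5-/- (adjusted p = 0.00315) and 3.33 in Norrin- (adjusted p = 7.66e-06). Fitted only on the 3 Lrp5-/- arrays and wild type 4 to 6, which match them in the sex-linked genes, the Lrp5-/- value was 1.74 with adjusted p = 0.0579. With the red blood cell covariate Car13 was 3.93 in Fz4-/- (adjusted p = 0.595), 2.11 in Lrp5-/- (adjusted p = 0.257) and 3.60 in Norrin- (adjusted p = 0.00551). The probe set 1421308_at passed in all 3 mutants (2.18, 1.37 and 1.77), and 1439620_at in Fz4-/- (1.65) and Norrin- (1.07) but not in Lrp5-/- (0.43, adjusted p = 0.45). Wild type signals of all 3 probe sets lie near or under the lower quartile, so the size of the rise is read from a dim start.

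Car7, a cytosolic enzyme known mainly from neurons, rose in Fz4-/- and Norrin-. With 1443824_s_at wild type spanned 4.98 to 6.37 with a median of 6.12. The Fz4-/- arrays read 7.63, 7.75 and 7.98, the Norrin- arrays 8.26, 7.73 and 7.94, and the Lrp5-/- arrays 5.92, 7.57 and 6.94. The first Lrp5-/- array lies within wild type and the others above it. The difference was 1.91 in Fz4-/- (SE 0.35, adjusted p = 0.00194), 2.09 in Norrin- (adjusted p = 0.000749) and 0.93 in Lrp5-/- (adjusted p = 0.14). The Lrp5-/- value passed without Lrp5-/- 1 (1.37, adjusted p = 0.0299), as the mean of the probe sets (0.70, adjusted p = 0.0136), and with the sex-matched pairs of Lrp5-/- 1 to 3 and wild type 4 to 6 as a block (0.97, adjusted p = 0.0434). With the red blood cell covariate Car7 was 1.30 in Fz4-/- (adjusted p = 0.932) and 1.84 in Norrin- (adjusted p = 0.166). The probe sets 1434973_at (1.30 in Fz4-/-, 1.41 in Norrin-) and 1452484_at (1.52 and 0.83) also passed in these 2 groups. In wild type 1434973_at had the higher mean (5.94 against 5.88), so 1443824_s_at was the brightest only through the mutant arrays. The mean log2 signal of 6 inner retinal neuron markers was 5.61 to 6.53 in wild type and 5.83 to 6.43 in the mutants. Over the mean of the mutants Prox1 rose by 0.83 (limma, adjusted p = 0.000315), where 13.0% of all genes rose. The other 5 did not pass and went both ways, from -0.66 (Pou4f1) to 0.72 (Nefl). The part of neuronal RNA in the Car7 values was not tested.

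**Figure D2:**
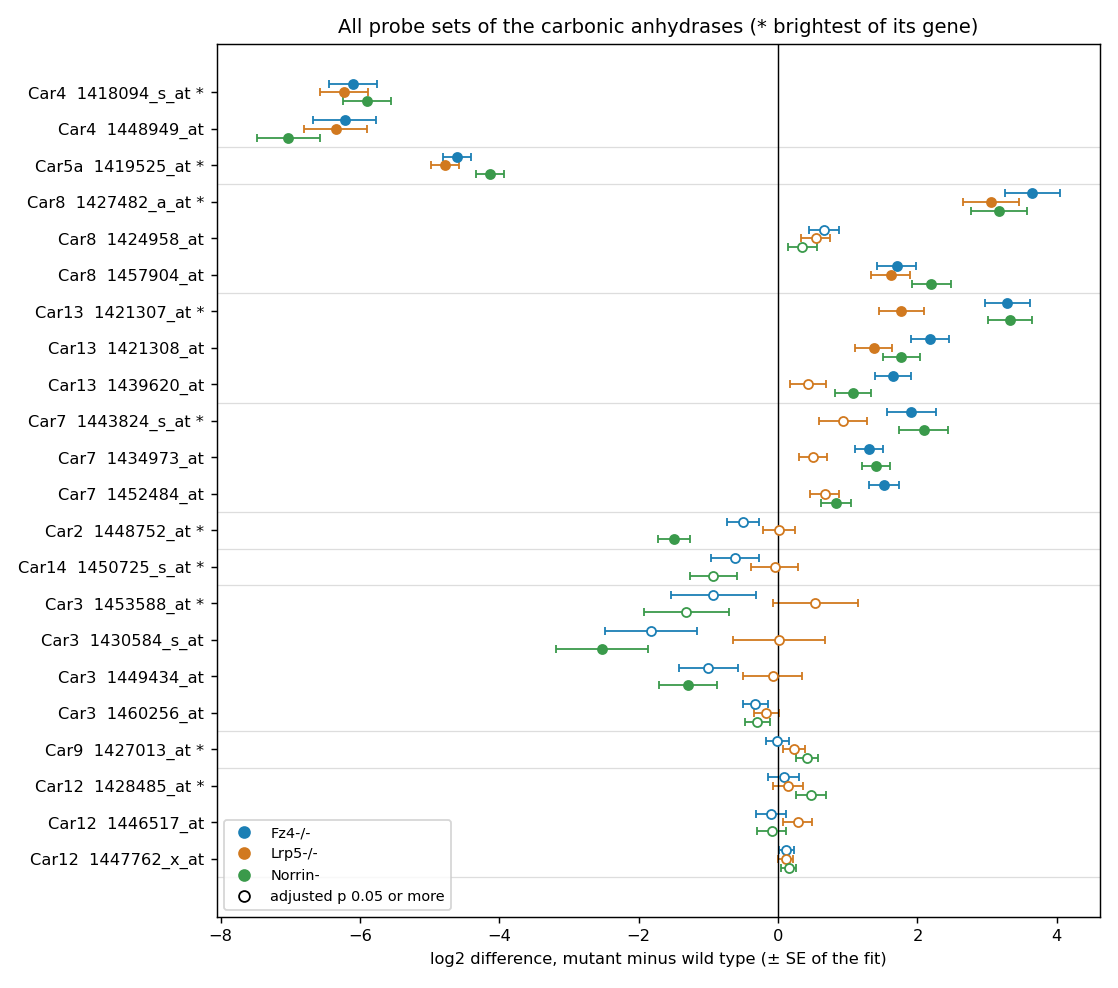
Log2 difference from wild type (horizontal axis) of each of the 22 probe sets of the carbonic anhydrases, in Fz4-/-, Lrp5-/- and Norrin-. Filled points passed an adjusted p of 0.05 in limma, and bars are standard errors. The 2 probe sets of Car4 lie between -7.03 and -5.90, and those of Car8 differ in size.

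Over all 22 probe sets, 8 passed as higher and 3 as lower in Fz4-/-, 4 and 3 in Lrp5-/-, 8 and 6 in Norrin-, and 9 and 4 over the mean of the mutants. Of all probe sets, 12.0%, 7.69%, 20.5% and 17.7% passed in these comparisons. Probe sets of 1 gene share its transcript and are not separate evidence.

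Car2, the fast and widespread cytosolic enzyme, is abundant in Müller glia and in red blood cells. Its 1 probe set, 1448752_at, read 11.19 at the lowest, 11.60 at the median and 11.92 at the highest in wild type. The Norrin- arrays read 10.00, 10.39 and 9.86, the Fz4-/- arrays 11.68, 10.61 and 10.94, and the Lrp5-/- arrays 11.92, 11.51 and 11.36. The Norrin- arrays lie below every other array, and the Lrp5-/- arrays within wild type. Car2 fell by 1.5 in Norrin- (SE 0.23, adjusted p = 0.000452), while the difference was -0.51 in Fz4-/- (adjusted p = 0.192) and 0.01 in Lrp5-/- (adjusted p = 0.993), and -0.67 over the mean of the mutants (adjusted p = 0.0152). With the actin gap as a covariate the Norrin- value was -1.38 (adjusted p = 0.0179), with Xist and Eif2s3y as covariates -1.46 (adjusted p = 0.0119), and with the red blood cell mean -0.95 (adjusted p = 0.249). Without Fz4-/- 1 the Fz4-/- value was -0.81 (adjusted p = 0.0432).

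Müller glia markers were present on every array, and within groups Car2 and Car14 varied with them. The mean of 6 such markers was 9.46 to 10.56 in wild type, 9.4 to 10.61 in Fz4-/-, 10.37 to 10.93 in Lrp5-/- and 9.27 to 9.96 in Norrin-. In Norrin- 2 of the 6 passed as lower, beside 8.19% of all genes: Rlbp1, a retinoid carrier, by 1.80 and Glul, glutamine synthetase, by 0.50. The others did not pass and went both ways: Aqp4 differed by -0.86, Slc1a3 by 0.03, Dkk3 by 0.46 and Kcnj10 by 0.72. In Lrp5-/- Aqp4 rose by 1.53 (limma, adjusted p = 0.0457). Over the 15 arrays the correlation of Car2 with the 6 markers ran from r = -0.10 (Kcnj10) to 0.94 (Rlbp1), with 0.18 for Dkk3, and that of Car14 from 0.15 (Kcnj10) to 0.88 (Rlbp1). After each group's mean was taken away it was 0.60 to 0.86 for Car2 and 0.65 to 0.86 for Car14, so arrays that were high in these markers within their group were also high in both genes. Car2 and Car14 went together at r = 0.81, and at 0.76 within groups. These points share their arrays and scaling and are given as a description, and the part of glial RNA in the Car2 and Car14 values was not tested.

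**Figure D3:**
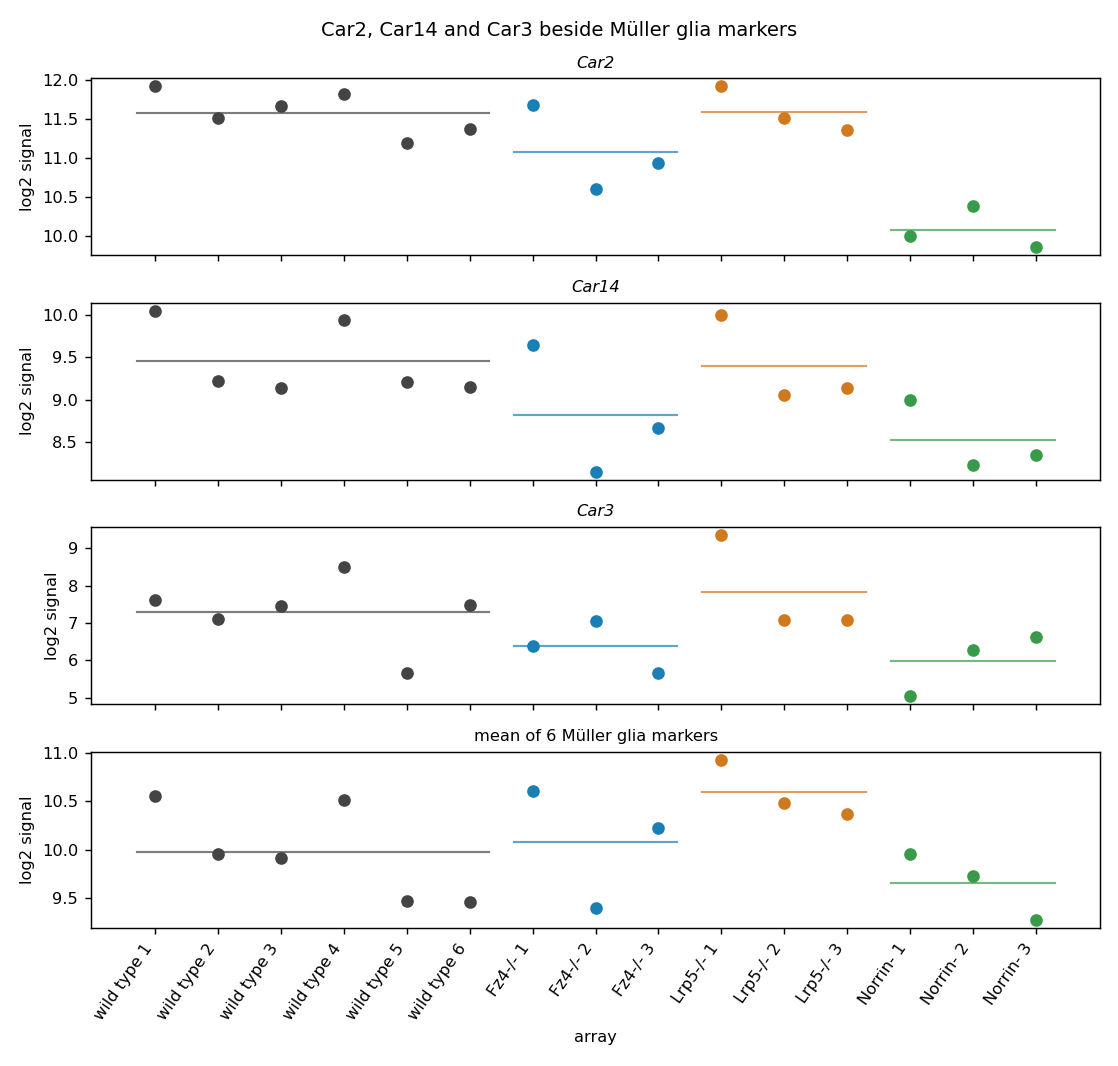
Log2 signal (vertical axes) of Car2, Car14, Car3 and the mean of 6 Müller glia markers on each of the 15 arrays (horizontal axis). Points are arrays and lines group means. The Norrin- arrays have the lowest Car2 values, 9.86 to 10.39, and glial means of 9.27 to 9.96.

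Car3, a slow cytosolic enzyme abundant in skeletal muscle and fat, had the widest spread in wild type of the 10 brightest probe sets (SD 0.94, n = 6). With 1453588_at wild type spanned 5.66 to 8.51 with a median of 7.48. Signals were 6.39, 7.06 and 5.67 in Fz4-/-, 9.35, 7.09 and 7.07 in Lrp5-/-, and 5.05, 6.29 and 6.63 in Norrin-. With this probe set the highest arrays were Lrp5-/- 1 and wild type 4, and each mutant overlaps wild type. The difference was -1.32 in Norrin- (SE 0.61, adjusted p = 0.139), -0.93 in Fz4-/- (adjusted p = 0.371) and 0.53 in Lrp5-/- (adjusted p = 0.774), and without those 2 arrays the Lrp5-/- value was 0.01. In Norrin- 1430584_s_at passed with -2.53 (SE 0.66, adjusted p = 0.0148) and 1449434_at with -1.29 (adjusted p = 0.0432), while 1460256_at read 3.96 to 4.95 on all arrays. With 1430584_s_at the Norrin- arrays (4.34 to 5.98) lay below all wild type arrays (6.41 to 9.45). In wild type 1430584_s_at had the higher mean (7.82 against 7.31), so 1453588_at was the brightest only through the mutant arrays. Skeletal muscle markers averaged 4.79 to 5.59 in wild type and 4.76 to 5.08 in the mutants, and 4 measured adipocyte markers 3.85 to 4.23 and 3.56 to 3.84. Pygm, the muscle glycogen phosphorylase, stood above the other muscle markers at 7.87 in wild type and 8.2 to 8.55 in the mutants' group means. The part of muscle or fat RNA in the Car3 values was not tested.

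Between mutants, few members passed the threshold. No carbonic anhydrase passed in limma between Fz4-/- and Lrp5-/- or between Fz4-/- and Norrin-, where 0.176% and 1.4% of all genes passed. An unadjusted p under 0.05 was found for 2 of the 10 in each, against 8.75% and 17.3% of all genes. Car2 differed by 0.99 between Fz4-/- and Norrin- (adjusted p = 0.0854). Between Norrin- and Lrp5-/- 1 was higher and 1 lower in Norrin-, against 7.33% and 1.75% of all genes (9.07% in either direction). There 6 of the 10 had an unadjusted p under 0.05, against 28.4% of all genes. By its brightest probe set Car13 was 1.56 higher in Norrin- (SE 0.37, adjusted p = 0.0252) and Car2 differed by -1.51 (SE 0.27, adjusted p = 0.00835). The other Car13 probe sets did not pass in limma there: 1421308_at differed by 0.4 (adjusted p = 0.441) and 1439620_at by 0.64 (adjusted p = 0.2), with arrays that overlap. For Car7 the brightest probe set differed by 1.17 (adjusted p = 0.086) and 1434973_at by 0.91 (adjusted p = 0.031), and 7.44% of all probe sets passed here. The Car13 difference was lost without Lrp5-/- 1, Lrp5-/- 3, Norrin- 1 or Norrin- 3, each left out alone, with adjusted p up to 0.117. With the actin gap as a covariate Car13 was 1.60 (adjusted p = 0.144) and Car2 -1.38 (adjusted p = 0.0908). Car4, Car5a and Car8 did not pass between any pair of mutants.

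Car13, Car1, Car3 and Car2 follow each other as neighbouring protein-coding genes on chromosome 3 of GRCm38.p6. Genes of this row did not all move alike: in Norrin- Car13 rose by 3.33 and Car2 fell by 1.5. Car3, next to Car2, differed by -1.32 without passing by its brightest probe set, while 1430584_s_at (-2.53) and 1449434_at (-1.29) passed as lower. Car4 lies on chromosome 11, Car5a and Car7 on chromosome 8, Car8 and Car9 on chromosome 4, Car12 on chromosome 9, and Car14 elsewhere on chromosome 3.

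The genes whose signals were most like each member that passed in all 3 mutants were ranked by Pearson's r over the 15 arrays. For Car4 these were Slco1c1, a thyroid hormone carrier of the blood-brain barrier, and Islr2, each with r = 0.989, Ly75 with 0.988, and Slc22a8, an organic anion carrier, and Reck with 0.987. For Car5a they were Spaar (0.987), Ndufa7 and Islr2 (0.986), Lrp8 (0.984) and Slc22a8 (0.983), so Islr2 and Slc22a8 stand in both lists. For Car8 they were Bmp6, a secreted growth factor (0.966), Cd300lg (0.963), Tnmd (0.956), Aebp1 and Tbx20 (0.955). For Car13 they were Clec4n (0.982), Fam78b (0.978), Fam167a (0.974), Thsd7a (0.969) and Celf4 (0.968). These values rest largely on the step between wild type and mutants. Within groups r was 0.39 to 0.68 for the Car4 genes, -0.06 to 0.47 for those of Car5a, 0.43 to 0.73 for those of Car8 and 0.57 to 0.79 for those of Car13. Clec4n encodes a lectin of myeloid cells, whose marker means were 8.74 to 10.2 in wild type and 10.1 to 11.17 in the mutants, and the part of such cells in the Car13 rise was not tested.

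Genes that move bicarbonate, protons and lactate across membranes work beside the carbonic anhydrases. Of 13 measured bicarbonate transporters, 2 rose and none fell in limma over the mean of the mutants, against 13.0% and 8.94% of all genes: Slc4a8 by 1.16 (adjusted p = 0.0163) and Slc26a4 by 0.92 (adjusted p = 0.017). In all, 5 of the 13 had an unadjusted p under 0.05, as did 33.8% of all genes. In Norrin- Slc26a7, a chloride and bicarbonate exchanger, rose by 2.57 (adjusted p = 0.00162) and Slc4a5, a sodium bicarbonate cotransporter, by 1.61 (adjusted p = 0.0157), with no such call in the other mutants. Of 15 measured genes of proton and lactate movement, 4 rose and 5 fell, against the same shares of all genes. Slc16a1, the lactate carrier of barrier endothelium, fell by 2.63 (adjusted p = 3.14e-09), and Bsg, the basigin chaperone that brings it to the membrane, fell by 2.70 (adjusted p = 2.28e-09). Slc16a4, a relative of that carrier, fell by 3.22 (adjusted p = 1.11e-09), and Slc9a2, a sodium and proton exchanger, fell by 2.96 (adjusted p = 4.77e-08). Slc16a3, a lactate exporter, rose by 1.85 (adjusted p = 2.54e-05) and Slc9a9, an endosomal exchanger, by 1.62 (adjusted p = 0.000863). The list medians were 0.00 and 0.04, beside -0.01 for all genes.

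**Figure D4:**
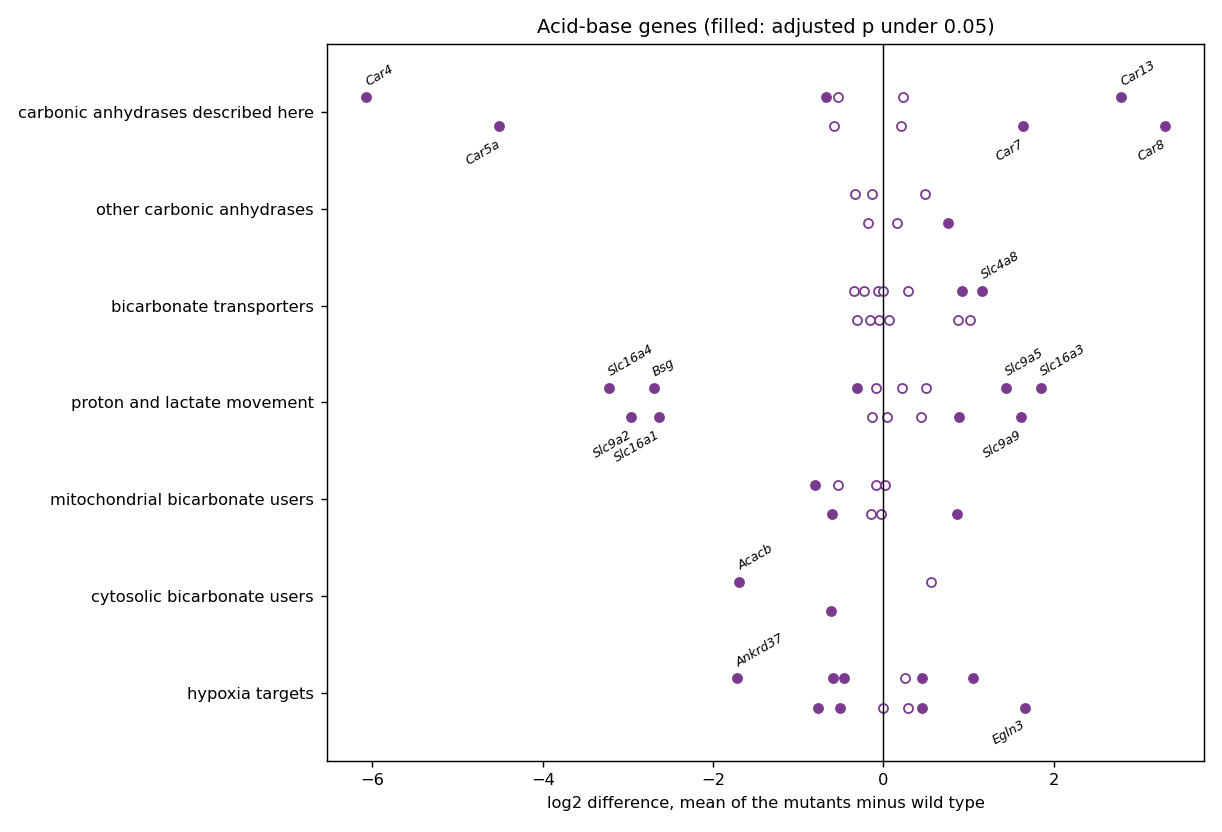
Log2 difference of the mean of the 3 mutants from wild type (horizontal axis) for the carbonic anhydrases and the listed acid-base and hypoxia genes (rows). Each point is 1 gene by its brightest probe set, filled where limma's adjusted p was under 0.05. Car4 at -6.07 and Car5a at -4.51 lie lowest, and Car8 at 3.30 highest.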

How the data were processed

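The deposited log2 signals came from RMA, per the submitters' processing notes. No source used here gives its settings or says whether the 15 arrays were normalized together. Probe sets were named from a platform table: 34945 had 1 symbol, 932 several and 9160 none, and 64 control probe sets were left out. Group means of all 15 arrays were fitted in limma 3.58.1 (R 4.3.3, lmFit and eBayes), with Benjamini-Hochberg adjustment over 45037 probe sets in each contrast. No filter or scaling was applied, and a gene was counted by its brightest probe set, that with the highest mean over all 15 arrays. RMA compresses low signals, so folds of dim genes are understated. P-values measure the spread between pools, not between mice. The number of arrays limits the precision. The fit was tested on simulated data.

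The members and gene lists were chosen with earlier results of these data known. All members were named. Listed genes were named where they passed over the mean of the mutants, at most 6 per list, and a further few in Norrin- were named after their values were seen. The 5 genes most like a member were named by Pearson's r. Promoter sequences came from RefSeq, GRCm38.p6. Besides leaving out each array, 13 settings and 4 added after the data were seen were tried. Arrays of different groups with the same replicate number did not deviate together as a rule: r was -0.281 to 0.376, over 0.1 in 6 of 18 pairs. Between Fz4-/- and wild type it was 0.218, 0.052 and 0.376 for replicates 1 to 3. Sex-linked genes matched Fz4-/- 1 to 3 with wild type 1 to 3 and Lrp5-/- 1 to 3 with wild type 4 to 6, and these pairs were tried as a block.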

Additional observations from a re-analysis of the deposited data

Results flagged for a closer look

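In 22 probe sets of the carbonic anhydrases, the 6 wild type arrays were searched for a value far from the others, which chance gives in about 1 in 20 groups. For Car8, 1427482_a_at read 3.26 on wild type 5, while the other wild type arrays lay closer together. Differences between mutants were tested for each probe set and each of the 3 pairs. Car13 (1421307_at, 1.56), Car7 (1434973_at, 0.91) and Car2 (1448752_at, -1.51) differed between Norrin- and Lrp5-/- by limma.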

How the results depend on the processing

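Of 2025 values of the 10 genes under other settings, 1976 kept their side of the threshold and their direction where called, 24 lost and 24 gained a call, and 1 reversed: Car2 over the mean of the mutants was 0.19 with the red blood cell covariate. That covariate, which differs between wild type and mutants without overlap, left 0 of 5 calls in Fz4-/- (limma), 2 of 4 in Lrp5-/-, 3 of 6 in Norrin- and 2 of 6 over the mean. The share of all genes that passed with it is not given here, so the lost calls are not read as particular to these genes. The members called in Fz4-/- kept their direction: Car4 was -6.12 against -6.10, Car5a -4.03 against -4.61, Car8 3.20 against 3.65, Car13 3.93 against 3.29 and Car7 1.30 against 1.91. Among members not called there, Car2 (0.79 against -0.51), Car14 (0.71 against -0.62) and Car3 (0.58 against -0.93) changed sign. With only probe sets above the median, which drops dim members, there were 3 in Fz4-/-, 2 in Lrp5-/- and 1 between Norrin- and Lrp5-/-. Between Norrin- and Lrp5-/- the 2 calls became 0 when only these groups were fitted, 0 with the actin gap and 1 without Lrp5-/- 1 and wild type 4, and 1 (Car2) appeared between Fz4-/- and Norrin- with a trended, robust variance. The cause was not tested. Leaving out single arrays gave 5 to 6 calls in Fz4-/-, 4 to 5 in Lrp5-/-, 6 to 7 in Norrin-, 6 over the mean, 0 between Fz4-/- and either other mutant, and 1 to 3 between Norrin- and Lrp5-/-. The replicate number was also used as a block, which the arrays do not bear out as a pairing for Norrin- or Lrp5-/-. Of the wild type arrays, 4, 5 and 6 deviated most together with Lrp5-/- 1 to 3 (r = 0.694, 0.383 and 0.241). With the replicate block Car14 passed in Norrin- (-0.94, adjusted p = 0.00943), over the mean (-0.55, adjusted p = 0.045) and between Norrin- and Lrp5-/- (-0.88, adjusted p = 0.0314). Signals near the lower quartile limit Car9, Car12 and the low side of Car4, Car5a, Car8 and Car13.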
